A study of Homo sapiens with 15 samples.

Results

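Keratin transcripts were counted in IHA, an established line of immortalized human astrocytes of fetal origin that carries SV40. Doxycycline (1 µg/ml) switched on the mutant enzyme IDH1-R132H in these cells. The genes were the 7 keratins KRT7, KRT8, KRT17, KRT18, KRT19, KRT80 and KRT81, taken by name from the 16324 genes that the deposited count tables list. All 7 are in both tables. There were 15 samples of this line, all labelled with wild-type IDH1 as their genotype and all grown in serum with EGF. The controls were 3 untreated samples of batch b1 and 3 of batch b2. The treated samples were 4 at day 3 of doxycycline, all b2, and at day 7 of doxycycline 1 of b1 and 4 of b2. The tags b1 and b2 are from the sample titles and are called batches here. No control given doxycycline but lacking the mutant gene was analysed here, so the effects of the drug and of the mutant enzyme cannot be told apart, and the labels do not say whether the line was 1 clone or the replicates separate cultures. The p-values measure the spread between these samples.

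Keratins are the intermediate filament proteins of epithelial cells. A filament is built from pairs of a type I and a type II keratin, and a keratin without a partner is degraded. KRT8 (type II) and KRT18 (type I) are the pair of simple, single-layered epithelia and the first keratins of the embryo, and KRT7 (type II) and KRT19 (type I) join them in ducts and other lining epithelia. KRT17 (type I) is a keratin of skin appendages and of injured epidermis. KRT80 (type II) is found in many epithelia, and KRT81 (type II) is a hair keratin. Astrocytes in the brain build their filaments mainly from vimentin and GFAP.

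The libraries were made by MARS-seq, which counts transcript 3′ ends by unique molecular identifiers (UMIs), so that 1 UMI stands for 1 captured transcript whatever its length. The table of untreated and day 7 samples of both batches (here the day 7 table) lists 15230 genes, with 2573290 to 5567651 UMIs in each library. The table of b2 samples alone (the day 3 and day 7 table) lists 12575 genes, with 1816599 to 4656705. The tables share 7 libraries but not their counts, so each was fitted by itself. Levels are given as CPM, a gene's UMIs relative to the scaled UMI total of its library. A level of 1 CPM stood for 2.51 to 5.73 UMIs, or 1.78 to 4.71 in the smaller table. The induced gene gave no check of the labels here: IDH1 was at 26.4 to 36.8 CPM in untreated and 28.6 to 43.4 CPM in day 7 libraries (log2 change 0.22 ± 0.11 SE, adjusted p = 0.178), and the labels do not say whether the induced transcript carries the 3′ end that was counted. In bulk samples, fewer cells expressing a keratin and less of its RNA per cell cannot be told apart.

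Of the 7 genes, 5 lie in the keratin cluster of chromosome 12 and 2 in that of chromosome 17, by GENCODE release 29 on GRCh38. KRT80 (chr12:52168996-52192000), KRT81 (chr12:52285913-52291534) and KRT8 (chr12:52897187-52949954) are on the minus strand, and KRT7 (chr12:52232520-52252186) and KRT18 (chr12:52948871-52952901) on the plus strand. KRT19 (chr17:41523617-41528308) and KRT17 (chr17:41619441-41624842) are on the minus strand. KRT18 is the only type I gene among those on chromosome 12. It lies head to head with KRT8, and their spans overlap by 1084 bases and their exons by 525 on opposite strands. KRT81 lies inside the span of KRT86 on the other strand without shared exon bases. KRT7 shares 282 exon bases with its antisense gene KRT7-AS and 32 with KRT87P, both on the other strand. The sources used here do not say whether the counting used strand.

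KRT8 and KRT18 also have processed copies elsewhere in the genome, and 3 of them were listed in the day 7 table alone, each with few UMIs per library: KRT8P12 on chromosome 3 (5 to 17), KRT18P5 on chromosome 22 (1 to 14) and KRT18P42 on chromosome 5 (0 to 7). The KRT8 transcript matched KRT8P12 at 90.6% of 1390 aligned bases, and the KRT18 transcript matched KRT18P5 at 91.7% of 1291. Below are the last 60 coding bases before the stop codon of KRT8 and KRT18, each followed by the matching stretch of its copy, with the bases that differ in capitals. KRT8 is the keratin whose count depended on the table, and any part of the copies in this was not tested. Of the last 400 bases, 168 of KRT8 aligned with KRT8P12 and 341 of KRT18 with KRT18P5. The KRT8 stretches differ at 3 positions and the KRT18 stretches at 4.
KRT8: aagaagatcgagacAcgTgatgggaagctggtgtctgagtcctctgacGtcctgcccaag
KRT8P12: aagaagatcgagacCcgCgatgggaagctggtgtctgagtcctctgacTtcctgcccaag
KRT18: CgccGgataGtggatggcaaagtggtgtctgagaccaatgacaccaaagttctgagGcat
KRT18P5: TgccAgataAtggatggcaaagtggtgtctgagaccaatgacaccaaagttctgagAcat
KRT81 and KRT86 were alike over the body of the transcript (94.9% of 1399 aligned bases), but only 56 of the last 400 bases of KRT81 aligned with KRT86. KRT86 was not listed in either table.

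KRT18 was by far the most abundant of the 7 keratins. In untreated cells of the day 7 table it stood at 970 ± 28.6 CPM (SD, n = 3) in b1 and 609 ± 18.1 in b2, and over the whole table it ranked 171 among 15230 genes by mean level. Among the 7, KRT8 followed at 67.2 ± 1.98 CPM in b1 and 42.2 ± 0.930 in b2, and KRT7 at 35.3 ± 3.42 and 27.9 ± 2.66. KRT19 stood at 16.8 ± 2.42 CPM in b1 and 17.4 ± 0.774 in b2. The order of the lowest 3 depended on the batch. In b1, KRT81 (16.1 ± 3.01 CPM) lay within the range of KRT19, above KRT80 (10.6 ± 1.52) and KRT17 (5.26 ± 1.79). In b2, KRT80 (7.61 ± 1.26) lay above KRT81 (4.40 ± 1.67), whose range overlapped that of KRT17 (3.02 ± 0.559). Among the 7 genes, type I UMIs outnumbered type II UMIs 7.68-fold in b1 and 7.66-fold in b2, with KRT18 making up 85.3% to 86.6% of the UMIs of the 7 genes in untreated libraries of the day 7 table. For scale, vimentin (VIM) had 6.51 ± 0.20 times the UMIs of KRT18 in untreated b1 and 11.9 ± 0.988 times in untreated b2.

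At day 7 of doxycycline, 3 of the 7 keratins were higher and 3 lower than in untreated cells of the day 7 table. In this comparison 15.7% of the 12449 genes tested were called, 8.43% higher and 7.28% lower (edgeR's quasi-likelihood test, with batch as a term and an adjusted p under 0.05 over all genes). KRT7, KRT80 and KRT81, all type II, rose. KRT8, KRT17 and KRT19 fell, and KRT18 did not pass. The median log2 change of the 7 was -0.19, against -0.02 over all genes tested.

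With both batches in 1 fit, the simple-epithelial pair had the smallest changes in this table. This did not hold in b1, where day 7 is 1 library. There KRT8 (-0.54) and KRT18 (-0.46) changed more than KRT7 (-0.03), KRT80 (0.37) and KRT81 (0.24), and less than KRT17 (-0.67) and KRT19 (-1.82). KRT18 was at 1003, 956 and 950.4 CPM in the untreated b1 libraries against 703 in the b1 library of day 7, and at 597, 600.2 and 630 in untreated b2 against 568, 588, 556 and 609 at day 7. The b1 day 7 library was thus below its controls, while the b2 groups overlapped. The change was -0.19 ± 0.07 (adjusted p = 0.0742), and with library size alone as the scaling KRT18 passed at -0.25 (adjusted p = 0.0186). KRT8 was at 64.9, 68.2 and 68.5 CPM in untreated b1 and 46.2 at day 7, and at 43.2, 41.4 and 42.1 in untreated b2 and 40.6, 36.3, 38.2 and 32.8 at day 7. In both batches every day 7 library was below every control, as with 70.5% of tested genes that lay wholly above or below their controls in b1, where day 7 is 1 library, and 25.1% in b2. KRT8 fell by 0.29 ± 0.09 on the log2 scale (1.22-fold, adjusted p = 0.0364). This call did not hold with DESeq2 (adjusted p = 0.0616) or without a filter on low counts (0.0568), nor when any of 8 of the 11 libraries was left out (-0.32 to -0.18 over all 11, adjusted p of up to 0.242).

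KRT19 had the clearest fall. It was at 17.6, 14.0 and 18.6 CPM in untreated b1 and 4.78 at day 7, and at 17.7, 18.0 and 16.6 in untreated b2 and 10.2, 8.93, 11.9 and 10.3 at day 7, without overlap in either batch (70.5% of tested genes were apart in b1 and 25.1% in b2). The fall was 0.93 ± 0.16 on the log2 scale (1.91-fold, adjusted p = 0.000423), and it passed without any 1 of the 11 libraries. KRT17, the rarest of the 7, was at 3.43, 7.02 and 5.32 CPM in untreated b1 and 3.19 at day 7, and at 3.64, 2.55 and 2.88 in untreated b2 and 1.34, 0.864, 1.05 and 1.12 at day 7. The day 7 library of b1 was just below its lowest control, and the b2 groups were apart. KRT17 fell by 1.19 ± 0.32 on the log2 scale (2.28-fold, adjusted p = 0.0141) on 3 to 24 UMIs per library. Without untreated b2 replicate 1 the fall was 1.04 and did not pass (adjusted p = 0.0616).

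Among the rising type II keratins, KRT7 was at 39.2, 33.9 and 32.8 CPM in untreated b1 and 34.7 at day 7, and at 25.003, 28.4 and 30.3 in untreated b2 and 42.5, 38.3, 38.0 and 38.8 at day 7. The b1 library of day 7 was within the range of its controls, and all 4 of b2 were above theirs. The rise was 0.36 ± 0.11 on the log2 scale (1.28-fold, adjusted p = 0.0283). KRT80 was at 11.3, 11.7 and 8.87 CPM in untreated b1 and 13.5 at day 7, and at 7.28, 6.56 and 9.00 in untreated b2 and 12.3, 8.64, 11.2 and 16.3 at day 7. In b2, 1 day 7 library lay below the highest control. The rise was 0.61 ± 0.18 (1.53-fold, adjusted p = 0.0239). KRT81 was at 18.1, 17.5 and 12.6 CPM in untreated b1 and 18.7 at day 7, and at 6.31, 3.64 and 3.24 in untreated b2 and 9.09, 7.20, 8.90 and 9.59 at day 7. In b1 the day 7 library was just above the highest control, and in b2 the groups were apart by a wider margin. The rise was 0.67 ± 0.20 (1.59-fold, adjusted p = 0.0242). For scale, 70.5% of tested genes lay wholly above or below their controls in b1, where day 7 is 1 library, and 25.1% in b2.

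Each of these 3 rises was lost when certain single libraries were left out. Without day 7 b2 replicate 20, none of them passed (KRT7 0.35, adjusted p = 0.0517; KRT80 0.48, 0.0740; KRT81 0.62, 0.0523). Without untreated b2 replicate 2 none passed either (adjusted p = 0.0874, 0.101 and 0.108 in the same order), KRT7 and KRT80 did not pass without untreated b2 replicate 1 (0.135 and 0.0715), and KRT81 did not without untreated b2 replicate 4 (0.0656). KRT7 did not pass with library size alone either (0.29, adjusted p = 0.0796).

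**Figure D1:**
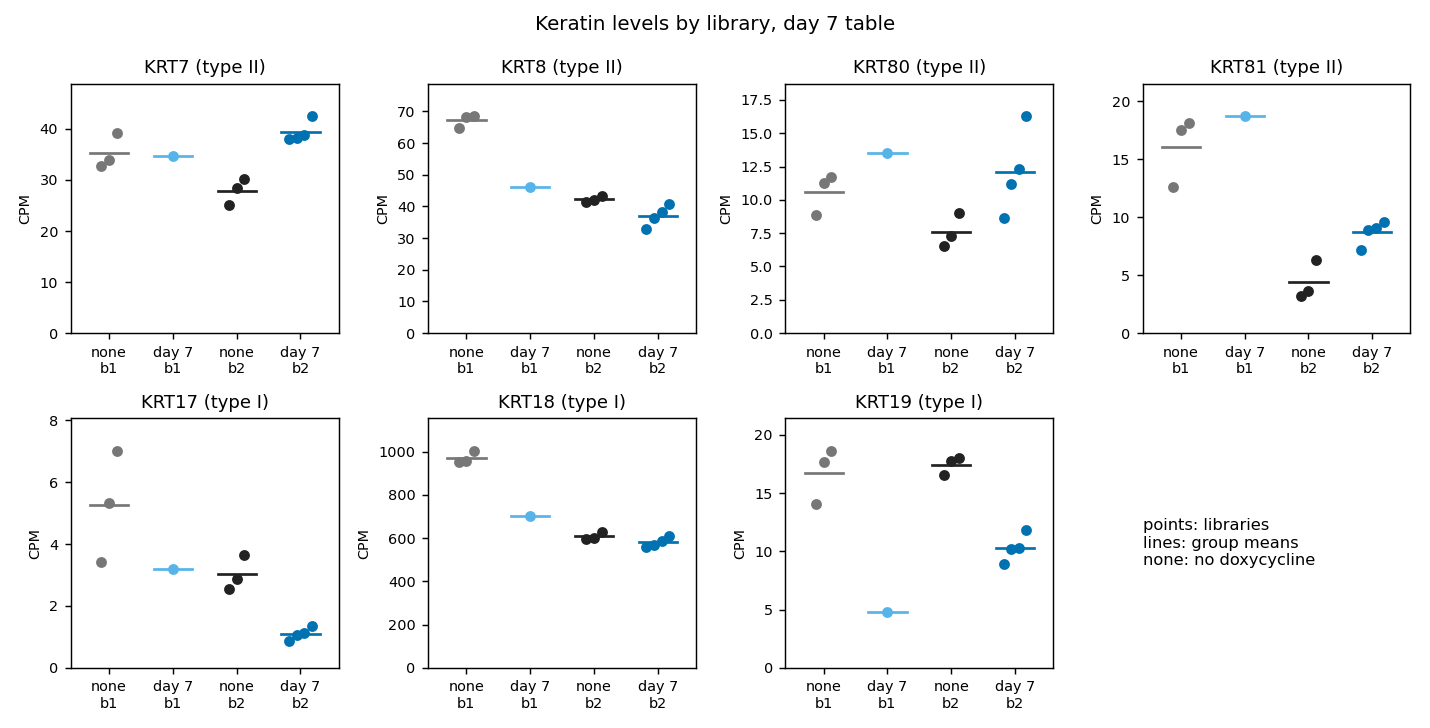
Level of each keratin in CPM (linear axis from 0) in the 11 libraries of the day 7 table, grouped by treatment and batch. Points are libraries and lines group means. KRT19 at day 7 lies below every untreated library of its batch (70.5% of tested genes lie apart in b1 and 25.1% in b2). Untreated b1 and b2 stand apart for KRT7, KRT8, KRT18 and KRT81, as they do for 56% of tested genes.

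Read by batch, KRT19 passed in both, KRT8 and KRT18 in b1 alone, and KRT7, KRT17, KRT80 and KRT81 in b2 alone, while no difference between the batches passed its own test. In a fit of the 4 group means, the day 7 change in b1 was -0.54 ± 0.16 for KRT8 (adjusted p = 0.0415), -0.46 ± 0.10 for KRT18 (0.00484) and -1.82 ± 0.35 for KRT19 (0.00138), so 3 keratins were called lower and 0 higher, where 6.94% of 13371 genes were called, 3.56% higher and 3.38% lower. That batch has 1 day 7 library, which this fit assumes to vary like the other groups. In b2, 3 keratins were called higher and 2 lower, where 14.3% of genes were called, 7.37% higher and 6.94% lower: KRT7 (0.51 ± 0.11), KRT17 (-1.43 ± 0.40), KRT19 (-0.74 ± 0.16), KRT80 (0.72 ± 0.21) and KRT81 (0.98 ± 0.24). KRT8 (-0.18 ± 0.10, adjusted p = 0.251) and KRT18 (-0.06 ± 0.06, adjusted p = 0.582) did not pass in b2. The difference between the batches was itself tested, and 0 of the 7 keratins were called, where 2.44% of genes were, 1.42% higher and 1.02% lower. At an unadjusted p under 0.05 there were 3: KRT18 (b2 minus b1 0.40 ± 0.12, adjusted p = 0.0690), KRT19 (1.08 ± 0.40, 0.149) and KRT7 (0.54 ± 0.21, 0.192). DESeq2 called 1, KRT18 (adjusted p = 0.0388), and limma-voom 0. KRT18 also passed with library size alone (0.0181) and without day 7 b2 replicate 17 (0.0243).

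The same 7 libraries of b2 gave another KRT8 in the day 3 and day 7 table. In the day 7 table the untreated libraries held 178, 227 and 117 KRT8 UMIs, and in the smaller one just 44, 58 and 26. The day 7 libraries held 152, 126, 219 and 147 in the former and 13, 12, 24 and 21 in the latter. The smaller table thus kept 22.2% to 25.6% of the KRT8 UMIs of untreated libraries and 8.55% to 14.3% of those of day 7 libraries, and these ranges do not overlap. The UMIs found in the day 7 table alone came to 32.0 ± 1.08 CPM in untreated (SD, n = 3) and 33.0 ± 3.76 CPM in day 7 libraries (n = 4), a difference smaller than the spread between libraries. The other 6 keratins kept 94.0% to 108% of their UMIs. Over the 9394 genes with a mean of at least 20 UMIs in these libraries, the median kept was 94.4%, and 9.28% of genes kept under 25%, as KRT8 did with 17.0% over the 7 libraries. The sources used here do not give the gene annotation behind either table, and the part it plays in the KRT8 counts was not tested.

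**Figure D2:**
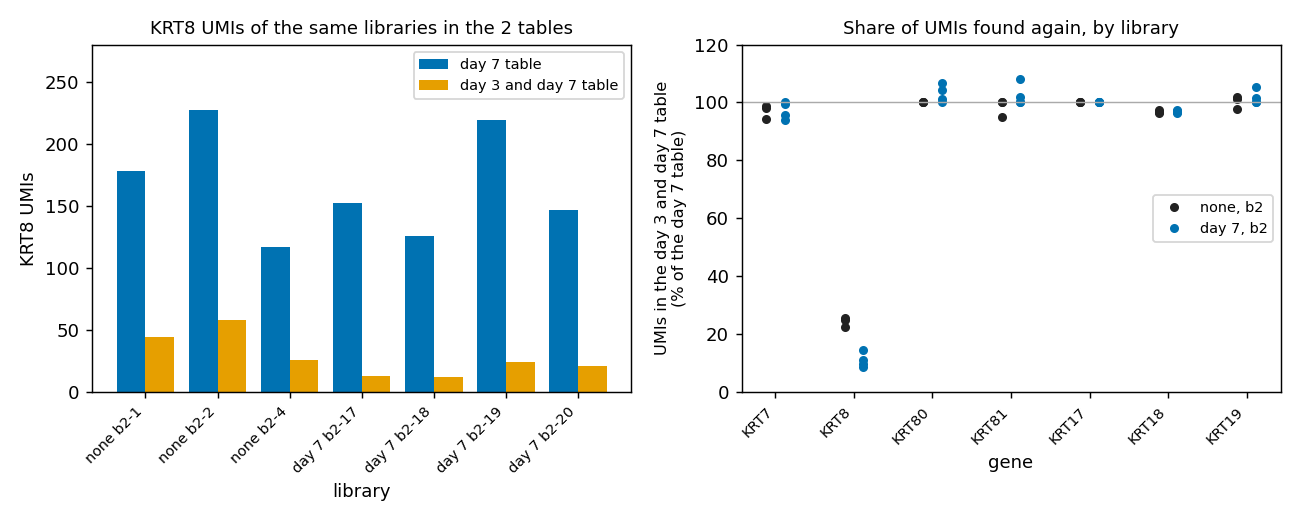
Left, KRT8 UMIs (bars, linear axis from 0) in the 7 b2 libraries that both tables hold, by table. Right, the UMIs of each keratin in the day 3 and day 7 table as a percentage of those in the day 7 table, 1 point per library. KRT8 keeps 8.55% to 25.6%, the other 6 keratins 94.0% to 108%.

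The day 7 change of KRT8 in b2 therefore differed by table. In the day 3 and day 7 table KRT8 was at 13.1, 12.9 and 11.3 CPM in untreated and 4.22, 4.17, 5.09 and 5.47 at day 7. The groups did not overlap, as with 24.7% of tested genes. KRT8 fell by 1.38 ± 0.23 on the log2 scale (2.60-fold, adjusted p = 7.2e-05), against the -0.18 ± 0.10 of the day 7 table from the same libraries. There 5 of the 6 keratins tested were called at day 7, 3 higher and 2 lower, where 15.6% of 10586 genes were called, 8.27% higher and 7.31% lower. KRT7 (0.49 ± 0.11), KRT80 (0.73 ± 0.21) and KRT81 (1.00 ± 0.25) rose, KRT19 fell by 0.76 ± 0.19, and KRT18 did not pass (-0.09 ± 0.07, adjusted p = 0.402). Without untreated b2 replicate 2, KRT80 (adjusted p = 0.117) and KRT81 (0.0724) did not pass. KRT80 also did not pass with DESeq2 (0.0550) or without untreated b2 replicate 1 (0.0533) or day 7 b2 replicate 20 (0.0803). KRT17 was under the filter on low counts in this table, with 8 to 15 UMIs per untreated library and 3 to 6 at day 7. These libraries are those of the day 7 table and give no independent repeat.

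At day 3 of doxycycline the earliest changes were a rise of KRT7 and a fall of KRT19. Of the 6 keratins tested, 1 was called higher and 1 lower, where 3.51% of 10586 genes were called, 1.84% higher and 1.67% lower. At day 3, 16.7% of tested genes lay wholly above or below the controls. KRT7 was at 28.9, 34.1 and 36.1 CPM in untreated and 53.5, 51.2, 49.995 and 50.2 at day 3, all above the controls. It rose by 0.64 ± 0.11 on the log2 scale (1.56-fold, adjusted p = 0.000727). KRT19 was at 22.0, 22.5 and 19.6 CPM in untreated and 14.6, 12.4, 5.86 and 14.6 at day 3, all below the controls, with replicate 11 lowest. It fell by 0.86 ± 0.20 (1.81-fold, adjusted p = 0.0139), a call that did not hold without day 3 replicate 11 (-0.64, adjusted p = 0.0548) or untreated b2 replicate 1 (0.0506) or 2 (0.0789).

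The other keratins did not pass at day 3, where 16.7% of tested genes lay wholly above or below the controls. KRT18 was at 708, 714 and 733 CPM in untreated and 847, 842, 864 and 740 at day 3, all above the controls, with a change of 0.20 ± 0.07 (adjusted p = 0.105). KRT8 was at 10.1, 9.50, 4.95 and 8.29 CPM at day 3, all below the 11.3 to 13.1 of the controls, with a change of -0.61 ± 0.22 (adjusted p = 0.136). KRT80 (0.38 ± 0.23, adjusted p = 0.413) and KRT81 (-0.71 ± 0.33, adjusted p = 0.277) overlapped with their controls. KRT17, which was not tested here, had 6 to 8 UMIs per library at day 3 (2.86 ± 0.526 CPM, n = 4) against 3.69 ± 0.695 CPM in untreated libraries.

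**Figure D3:**
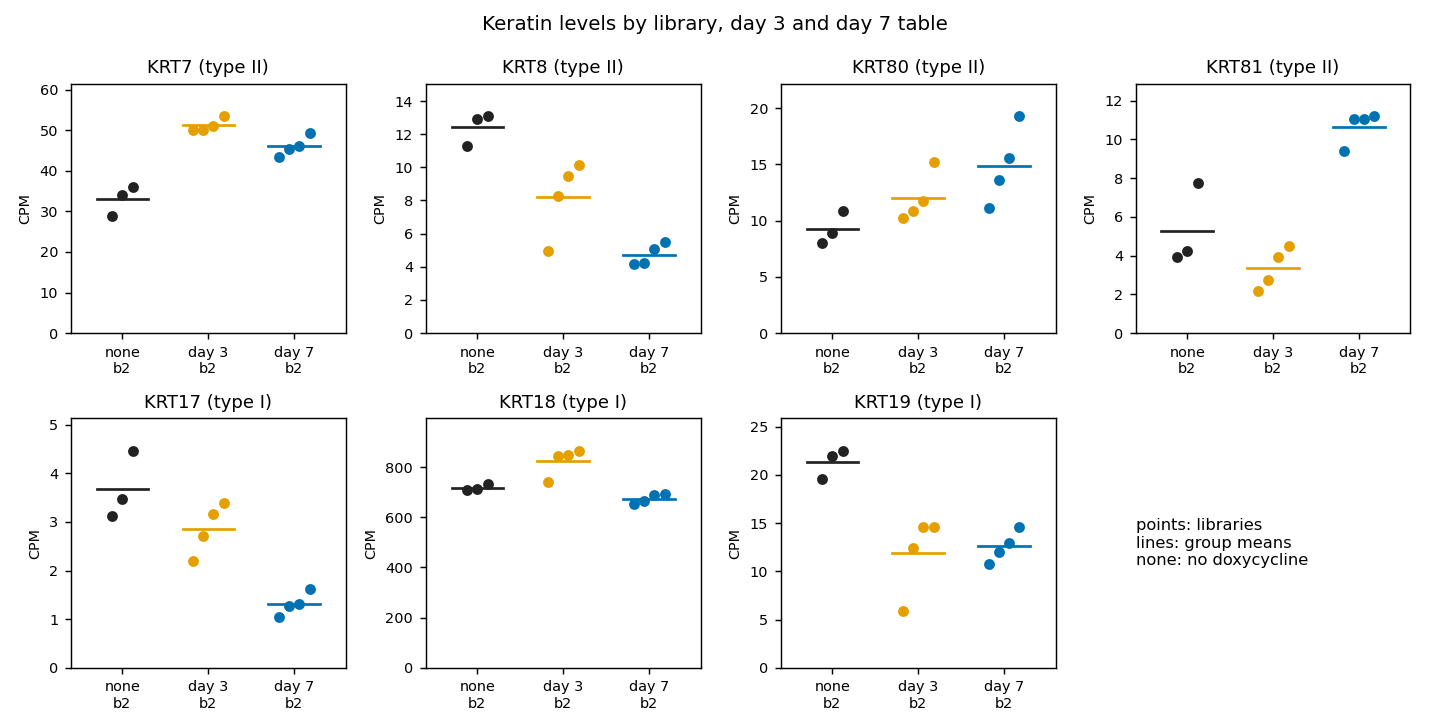
Level of each keratin in CPM (linear axis from 0) in the 11 b2 libraries of the day 3 and day 7 table. Points are libraries and lines group means. KRT81 at day 7 (9.38 to 11.2 CPM) lies above every day 3 library (2.19 to 4.50 CPM), and KRT7 is highest at day 3. Between day 3 and day 7, 11.6% of tested genes lie wholly apart.

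From day 3 to day 7, KRT81 rose and KRT18 fell, 1 call in each direction among the 6 tested, where 5.07% of 10586 genes were called, 2.76% higher and 2.31% lower. Between the day 3 and day 7 libraries, 11.6% of tested genes lay wholly apart. KRT81 was at 3.94, 2.19, 4.50 and 2.76 CPM at day 3 and 11.0, 9.38, 11.0 and 11.2 at day 7, far apart. It rose by 1.71 ± 0.27 on the log2 scale (3.27-fold, adjusted p = 0.000129), the largest change among the keratins tested in this table, and it passed without any 1 of the 11 libraries. KRT18 was at 664, 690.5, 654 and 691 CPM at day 7, below every day 3 library, and fell by 0.29 ± 0.06 (1.22-fold, adjusted p = 0.00406), also without any 1 of the libraries. The day 3 and day 7 values of KRT18 thus lay on either side of the untreated ones in this table. Neither passed against untreated (adjusted p = 0.105 at day 3 and 0.402 at day 7). In the day 7 table the b2 groups of KRT18 overlapped. KRT8 went down by 0.77 ± 0.24 without passing (adjusted p = 0.0652), and passed when day 3 replicate 11 was left out (-0.94, adjusted p = 0.0224). KRT7 (-0.15 ± 0.10, adjusted p = 0.437), KRT19 (0.10 ± 0.20, 0.850) and KRT80 (0.34 ± 0.19, 0.363) did not pass. The 95% interval of the KRT19 difference, -0.32 to 0.52, still allows a change in either direction. The untreated, day 3 and day 7 groups share their fit and the day 3 libraries serve in both comparisons, so these values are not independent of the day 3 ones.

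**Figure D4:**
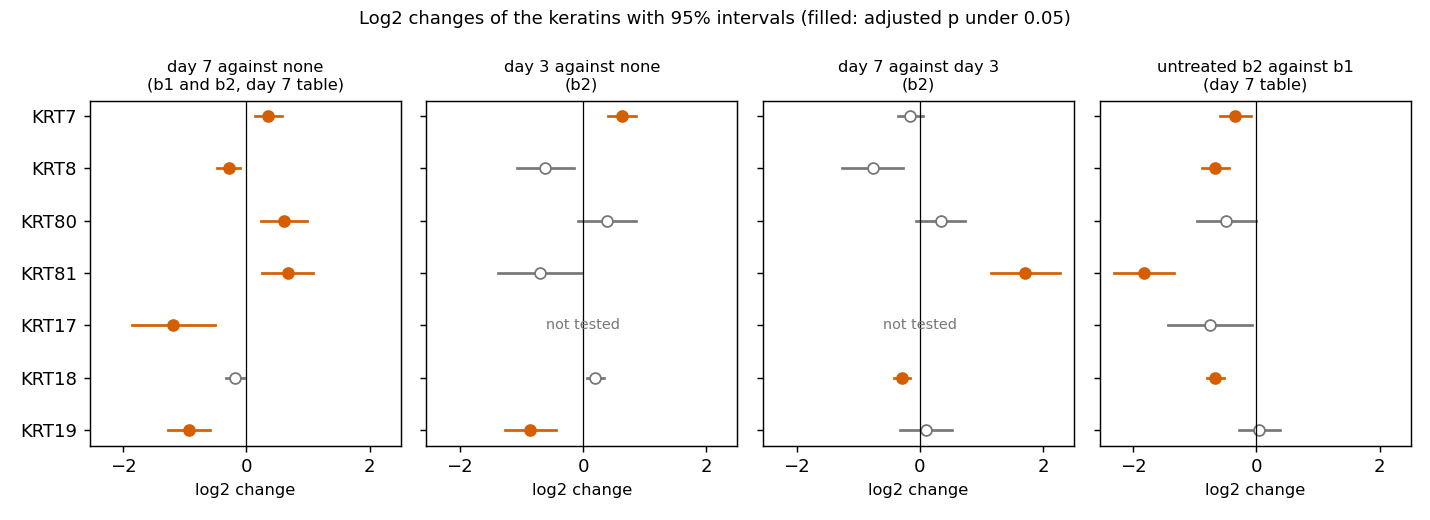
Log2 change of each keratin with its 95% interval in 4 comparisons (x axis, log2 scale, 0 meaning no change). Filled points passed an adjusted p of 0.05, open ones did not. KRT7 is right of 0 at day 3 and day 7, KRT19 left of 0 at both, and KRT81 is far to the right from day 3 to day 7 and far to the left in untreated b2 against b1.

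Untreated b2 cells held less of 4 keratins than untreated b1 cells. Of the 7, 4 were lower in untreated b2 than in untreated b1 and 0 higher, where 44.3% of 13371 genes were called, 22.5% higher and 21.8% lower. KRT81 had the largest difference, 12.6 to 18.1 CPM in b1 against 3.24 to 6.31 in b2 (log2 change -1.83 ± 0.24, 3.55-fold lower, adjusted p = 4.81e-07). KRT8 and KRT18 were lower by nearly the same amount, -0.66 ± 0.10 (adjusted p = 8.85e-06) and -0.67 ± 0.07 (1.17e-08). By the KRT8 counts of the day 7 table, the KRT18 to KRT8 ratio of UMIs was 14.4 ± 0.866 in untreated b1 and 14.4 ± 0.569 in untreated b2 (SD, n = 3 each). By those of the day 3 and day 7 table, the ratio in the same b2 libraries was 58.0 ± 5.89. KRT7 was lower by less (-0.34 ± 0.12, adjusted p = 0.0231), and this did not hold with DESeq2 (0.0885), with library size alone (0.0572) or without untreated b1 replicate 1 (0.145) or b2 replicate 1 (0.123). KRT19 did not differ beyond its spread (0.05 ± 0.16, adjusted p = 0.852, 95% interval -0.29 to 0.38). KRT17 (-0.75 ± 0.33, adjusted p = 0.0691) passed without untreated b1 replicate 1 (0.0281), and KRT80 (-0.49 ± 0.23, 0.0906) did not pass. The cause of the difference between the batches was not tested.

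The balance between type I and type II was read over the 7 genes, without KRT10. In the day 7 table type I UMIs outnumbered type II UMIs 7.44-fold to 7.93-fold in the untreated libraries of both batches. The ratio was 6.29-fold in the b1 library of day 7 and 5.54-fold to 6.61-fold in the b2 libraries of day 7. Every day 7 library was thus below every control. Of single tested genes, 70.5% lay wholly apart from their controls in b1, where day 7 is 1 library, and 25.1% in b2. With the lower KRT8 counts of the day 3 and day 7 table the ratio was 12.4 ± 0.204 in untreated b2, 11.2 ± 0.913 at day 3 and 9.07 ± 0.846 at day 7. The sum of the 7 keratins in the day 7 table was at 700.3 to 734 CPM in untreated b2 and 665 to 718 CPM at day 7, and the groups overlapped. In the day 3 and day 7 table it was at 793 to 818 CPM untreated, 829 to 948 at day 3 and 745 to 785 at day 7, without overlap. Of single tested genes there, 16.7% lay apart from the controls at day 3 and 24.7% at day 7, and 11.6% between the days. KRT18, which did not pass against untreated on either day, made up 87.5% to 91.6% of the UMIs of the 7 genes in that table. In b1 the sum was at 1097 to 1157 CPM untreated and 824 CPM at day 7. VIM did not pass at day 7 (0.11 ± 0.07, adjusted p = 0.325).

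The authors' deposited table of DESeq2 results gave the directions reported above for every keratin tested here, in each of its 4 comparisons, once the sign is turned so that the later group is the numerator. These values were deposited with the counts fitted here, and their sign was judged by correlation with the fits. The shared directions are therefore no independent check. In the authors' deposited table of day 7, KRT8 did not pass (-0.27, adjusted p = 0.0778), while in the authors' deposited table with day 3 it did (-1.39, adjusted p = 0.000171). The authors' deposited table with day 3 also lists KRT17, untested above, at -1.49 for day 7 (adjusted p = 0.0581), and KRT80 at 0.71 (0.0637).

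Few other keratins were listed. Of 48 further keratin genes looked for, 6 were listed, all type I: KRT10, KRT14, KRT15, KRT33B, KRT34 and KRT222. None of the 22 other type II keratins was listed, KRT5 included, which pairs with KRT14 in basal epidermis. KRT10 was abundant (206 to 261 CPM in the day 7 table), second to KRT18 among the keratins. The other 5 were at 0 to 17 UMIs per library. Of these 6, 2 were tested at day 7 in the day 7 table, and edgeR called 0 (0 at an unadjusted p under 0.05). KRT14 had 1, 0 and 2 UMIs in untreated b1 and 5, 6 and 11 in untreated b2, which was called (adjusted p = 0.0112), and KRT10 was lower in untreated b2 (-0.23 ± 0.07).

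Genes that act with keratins were read from fixed lists in the day 7 table, against a background of 15.7% of genes called. Of 12 other intermediate filament genes tested, 3 rose and 3 fell, with a median log2 change of 0.03. The neuronal filament gene INA (0.97 ± 0.18), the lamin gene LMNA (0.31 ± 0.07) and SYNM, synemin (0.59 ± 0.19), rose, and the muscle filament gene DES (-1.62 ± 0.39), LMNB1 (-0.37 ± 0.09) and LMNB2 (-0.24 ± 0.07) fell. Nestin (NES) did not pass (-0.19 ± 0.23). Of 10 genes of plakins and desmosomes, some of which anchor keratins to cell junctions, 0 rose and 2 fell (median -0.23). These were the plakin MACF1 (-0.37 ± 0.08) and plakophilin PKP1 (-0.72 ± 0.23). Desmoplakin (DSP, -0.20 ± 0.12) and plectin (PLEC, 0.14 ± 0.07) did not pass. In the day 3 and day 7 table edgeR called 0 of 9 at day 7 (median -0.07, 2 at an unadjusted p under 0.05). Of 7 hemidesmosome and laminin-332 genes, 2 rose and 1 fell (median 0.04): COL17A1 (1.74 ± 0.40) and LAMB3 (0.45 ± 0.10) against the integrin ITGB4 (-0.81 ± 0.18). The COL17A1 value rests on 1 to 15 UMIs per library. Of 9 keratin-binding proteins and chaperones, 1 rose and 2 fell (median -0.08): SQSTM1 (0.25 ± 0.06), against the small heat shock protein HSPB1 (-0.40 ± 0.07) and the keratin organizer FAM83H (-0.62 ± 0.15).

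Regulators were read in the same way. Of 10 AP-1 and ETS factors, known regulators of several keratin genes, 5 rose and 1 fell at day 7 (median 0.28): FOSB (1.39 ± 0.28), FOS (0.77 ± 0.20), JUN (0.31 ± 0.07), FOSL1 (0.30 ± 0.07) and ETS2 (0.26 ± 0.07) against JUND (-0.30 ± 0.10). In the day 3 and day 7 table, 2 of these 10 rose and 1 fell at day 7, and at day 3 edgeR called 0 (2 at an unadjusted p under 0.05). Of 6 transcription factors of mesenchymal cells, 3 rose and 1 fell (median 0.12): SNAI2 (0.93 ± 0.15), SNAI1 (0.69 ± 0.13) and TWIST2 (0.36 ± 0.09) against TWIST1 (-0.44 ± 0.09). SNAI1 (0.85 ± 0.14) and SNAI2 (0.75 ± 0.17) had also risen at day 3. Of 12 transcription factors of epithelia, 4 were listed, 3 tested and 0 called by edgeR (1 at an unadjusted p under 0.05).

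Markers of the labelled cell type were in part absent. Of 12 astrocyte markers 7 were listed, and GFAP, AQP4, SLC1A2, ALDH1L1 and FABP7 were not. Their sum was at 304 to 311 CPM in untreated b1, 181 to 218 in untreated b2, 231 in the b1 library of day 7 and 199 to 213 in those of b2. At day 7 SOX9 rose (0.64 ± 0.15) and ALDOC fell (-0.83 ± 0.10). Markers of cells that could bring in keratins were in part absent as well. Of 14 epithelial markers 6 were listed, without CDH1, OCLN or CDH3, and their sum was at 31.2 to 36.5 CPM in untreated b1, 40.4 to 46.1 in untreated b2 and 26.8 to 28.9 in day 7 libraries. Of the 4 tested, 0 rose and 2 fell at day 7, and all 4 had an unadjusted p under 0.05. Their median log2 change was -1.02, against -0.02 over all genes. KRT8, KRT17 and KRT19 also fell, while KRT7, KRT80 and KRT81 rose. The tight junction gene CLDN7 fell by 1.45 ± 0.26. At day 3, 0 of the 3 tested rose and 1 fell (CLDN1, -0.59 ± 0.16), and the median was -0.59. In untreated b2 against b1, 2 of 5 epithelial markers were higher and 0 lower (median 0.63), where 44.3% of genes were called. Of the 7 keratins, 4 were lower and 0 higher in that comparison. Of 11 keratinocyte markers 4 were listed, without KRT5, KRT1, TP63 or IVL, and of these LAMB3 and COL17A1 rose. The keratinocyte sum was at 236 to 298 CPM in untreated and 252 to 308 CPM in day 7 libraries. KRT10, which is on this list, was itself at 206 to 261 CPM. Of 7 mesothelial markers 2 were listed, without UPK3B or CALB2, at a sum of 5.58 to 8.87 CPM in untreated and 5.58 to 13.8 in day 7 libraries. The 1 tested did not pass at day 7 (0.53, with an unadjusted p under 0.05). In the day 3 and day 7 table the 1 tested was called higher at day 7 (0.74). The part of such cells in the keratin levels was not tested. Of 7 fibroblast and pericyte markers tested 0 rose and 3 fell, among them COL1A2 (-1.85 ± 0.08). Of neural stem cell markers 0 of 5 rose and 1 fell (PAX6, -0.25 ± 0.08). Of endothelial markers 1 of 2 fell (TIE1, -0.78 ± 0.16). Of microglial markers the 1 tested rose (CSF1R, 1.51 ± 0.41, on 1 to 14 UMIs per library). Of neuronal markers 0 of 2 were called by edgeR (1 at an unadjusted p under 0.05). TUBB3 was not listed in the day 7 table, but the day 3 and day 7 table lists it at 68.4 to 160 CPM. There 1 of the 2 neuronal markers tested rose at day 3, and 1 of 2 at day 7.

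Patterns like those of the keratins were looked for among the 6273 or 6274 other genes whose mean reached 20 CPM, over the 11 libraries of the day 3 and day 7 table. These libraries form 3 groups of 1 batch, so that genes with like changes between the groups are alike to some degree, and the values are a description. The gene most like KRT81 was LAMB3, a laminin-332 chain (Pearson r = 0.957), followed by CAP1 (0.957) and TPM1 (0.926), genes of the actin cytoskeleton. KRT8 was most like TCEAL7 (0.962), GSN (gelsolin, 0.944) and TK1 (0.941), KRT7 most like the chemokine CXCL12 (0.949), EXOC7 (0.946) and MEDAG (0.935), and KRT80 most like PTDSS1 (0.930), BNC1 (0.924) and C10orf2 (0.886). KRT18 was most like ZCCHC11 (0.934), SLC25A28 (0.897) and MXI1 (0.897), and KRT19 most like NT5C2 (0.910), HYI (0.904) and THAP11 (0.880).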

How the data were processed

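Bulk MARS-seq was run on 15 samples of 1 cell line. The authors deposited 2 tables of UMI counts per gene, made per the submitters' processing notes with bcl2fastq, cutadapt, STAR 2.4.2a, HTSeq and DESeq2 on hg38. The annotation and strand setting are not given in the sources used here. Both tables list genes with at least 6 counts in some library, as tested on the counts. The log2 fold changes and the p-values in the same tables were deposited by the authors from DESeq2, with the later group as the denominator, judged by their correlation with the fits here, so their sign was turned. A further 55 columns of per-sample values were not used. In the day 3 and day 7 table, 2 untreated columns carry names that b1 and b2 samples share, and they were taken as b2 because every other column there is b2.

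Genes were filtered with filterByExpr, given TMM scaling factors and put through the robust quasi-likelihood test of edgeR 4.0.16 (R 4.3.3), in 1 fit per table and design, with a batch term for day 7 in the day 7 table. Adjusted p values are Benjamini-Hochberg values over every tested gene, called under 0.05, and errors of log2 changes are standard errors. The scripts were tested on simulated data. CPM used TMM-scaled library sizes, and likeness used log2 CPM with a prior count of 2. The common biological coefficient of variation was 0.0991 and 0.0843. Alternatives were DESeq2 1.42.0, limma-voom (limma 3.58.1), RLE size factors, unscaled library sizes, looser and stricter filters, leaving out the batch term, b2 by itself, fewer groups in the fit, a replicate block and omitting each library. Gene models and transcripts were from GENCODE release 29, aligned with Biopython 1.88. Python 3.11.15 with matplotlib 3.10.9 drew the figures. The 7 keratins, their related lists and the naming rule were chosen with earlier results of these data known. The rule took the 7 keratins, up to 4 called genes of each list and direction by p, 7 set filament genes, every other listed keratin and copy, and the 3 genes most like each keratin. Of the list genes that this rule takes, 1 is not reported here.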

Additional observations from a re-analysis of the deposited data

Results flagged for a closer look

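KRT81 in day 7 b2 replicate 18 was at 9.38 CPM in the day 3 and day 7 table, the lowest of 4 libraries whose other values lay between 11.0 and 11.2. Its gap to the nearest library took up more of the group's range than Dixon's 95% limit allows. Of 21 gene and group combinations checked this was the only one, and chance passes about 1 in 20. In the day 7 table the same library was also the lowest of the 4, at 7.20 CPM. It lay above every b2 untreated library in both tables and above every day 3 library.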

How the results depend on the processing

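For the 7 keratins, 254 of 270 values under alternatives other than leaving out 1 library kept direction and side of the threshold, 12 lost a call, 4 gained one and none reversed. Without the batch term, 1 keratin and 323 genes were called at day 7 in place of 6 and 1955, and KRT81 was at 0.05 (adjusted p = 0.976). For the difference between batches, DESeq2 and library size alone each called 1 keratin, and limma-voom 157 genes in place of 326.

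Leaving out each library in turn gave 2 to 6 keratins and 1405 to 1970 genes called at day 7. In the day 3 and day 7 table it gave 3 to 6 and 1089 to 1915 for day 7, the fewest without untreated b2 replicate 2. For day 3 it gave 1 to 2 and 191 to 578, the most without day 7 b2 replicate 17. For day 7 against day 3 it gave 2 to 3 and 387 to 645, for the difference between batches 0 to 1 and 195 to 687 (the most without day 7 b2 replicate 17), and for the untreated batches 3 to 4 and 5091 to 6273. KRT19, which did not pass in either case, ranged from -0.12 to 0.23 for day 7 against day 3 (below 0 without day 3 b2 replicate 11) and from -0.047 to 0.11 between the untreated batches (below 0 without untreated b1 replicate 2). The cause of these changes was not tested. The difference between batches cannot be fitted without the b1 library of day 7.

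With library size alone the share of called genes that were higher went from 53.7% to 31.8% at day 7, from 53.1% to 41.1% for day 7 in the other table, from 52.4% to 35.0% at day 3 and from 58.3% to 73.1% for the difference between batches. Untreated libraries share the replicate numbers 1 and 2 across batches, but same-numbered libraries did not deviate together (r = 0.00638 and 0.00732). With the number as a replicate block, 5 keratins and 5175 genes were called between the untreated batches, in place of 4 and 5918, and KRT80 was added (-0.74, adjusted p = 0.0278). KRT17 and, in the day 3 and day 7 table, KRT8 and KRT81 rest on few UMIs, and small changes of these were not detectable at this depth.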
